A study of Mus musculus with 9 samples.

Results

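Purinergic and adenosine signalling was followed through 10 genes of the lung macrophage transcriptome. The genes were the nucleotide receptors P2ry6, P2ry12, P2ry13, P2ry14, P2rx4 and P2rx7, the ectoenzymes Entpd1 and Nt5e, and the adenosine receptors Adora2b and Adora3. They were taken by gene symbol from 24346 symbols, all 10 were found, and all 10 were tested. RNA sequencing covered 3 macrophage populations sorted from the lungs of C57BL/6 mice at postnatal week 10, with 3 samples each. Ctrl-AM were alveolar macrophages (AMs) of mice given vehicle in the left lung. Tumor-AM were AMs of mice whose left lung had received cells of the Lewis lung carcinoma (LLC) line, which derives from the same strain and was labelled with the red fluorescent protein tdTomato. Tumor-macrophage were the tumor-associated macrophages (TAMs) of such mice. Autofluorescent CD45+ cells were sorted as AMs when they carried Siglec-F, and as TAMs when they lacked Siglec-F and carried F4/80 and CD11b. The labels named no genetic change in the mice and did not give which samples came from the same mouse. The paper counts the replicates of each sequenced population in mice. On that reading, the p-values rest on the spread between mice of a group. Whether Tumor-AM and Tumor-macrophage samples came from the same mice was not stated.

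Cells release ATP, ADP, UTP, UDP and UDP-sugars when they are stressed or die, and these nucleotides act on neighbouring cells as signals. P2X receptors are ion channels opened by ATP, whereas P2Y receptors couple nucleotides to G proteins. The surface enzyme CD39, made from Entpd1, degrades ATP and ADP to AMP, and CD73, made from Nt5e, turns AMP into adenosine, which acts on its own G protein-coupled receptors and restrains many immune cells. Macrophages use these receptors to sense damage, to migrate and to start or stop inflammation.

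Values were FPKM, the fragments scaled to transcript length and to the mapped fragments of the library, so levels of different genes can be compared per length. Changes were differences between group means of log2(FPKM + 1) with their standard error (SE), and a gene was called past the threshold when its adjusted p, from limma with Benjamini-Hochberg adjustment over 10686 genes, was below 0.05. Libraries held an estimated 10000000 to 12400000 reads, and 13922 to 14924 symbols were above 0 in each. Siglecf was at 193 to 209 FPKM in Ctrl-AM, at 164 to 183 FPKM in Tumor-AM and at 0.456 to 0.835 FPKM in Tumor-macrophage. The summed level of the 4 TAM markers Ccr2, Cx3cr1, Tgfb3 and Ly6c2 was 6.58 to 8.35 FPKM in Ctrl-AM, 11.7 to 14.3 FPKM in Tumor-AM and 149 to 194 FPKM in Tumor-macrophage. The sample Tumor-AM 2 stood apart in the scavenger receptor gene Marco, an AM marker, which was at 329 FPKM there and at 60.2 and 95.3 FPKM in the other two Tumor-AM samples.

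The 10 genes lay on 6 chromosomes in the GENCODE annotation of GRCm38 (mm10). P2ry14 (chr3:59113855-59153618), P2ry13 (chr3:59207892-59210882) and P2ry12 (chr3:59216272-59262871) lay on the minus strand inside Med12l, a gene of the opposite strand that was at 0.0172 to 0.160 FPKM in the 9 samples. P2rx7 (chr5:122643911-122691432) and P2rx4 (chr5:122707544-122729738) were neighbours on the plus strand of chromosome 5. P2ry6 (chr7:100937630-100974649, minus strand), Nt5e (chr9:88327197-88372092), Adora2b (chr11:62248984-62266453), Adora3 (chr3:105870858-105908926) and Entpd1 (chr19:40612366-40741602) lay apart from these. The coding sequence of each of the 4 P2Y receptors was within 1 exon, that of each adenosine receptor in 2 exons, and that of P2rx4 and P2rx7 in 12 and 13 exons. Adora3 shared 26.1% of its 75-base exon windows with Tmigd3, which was at 0 to 0.597 FPKM, so reads of this low gene could be assigned to either.

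The 250 bases before the transcription start are shown for the 4 genes that changed in AMs of tumor-bearing mice, from the RefSeq promoter table of GRCm38.p6, 5′ to 3′ on the strand of the gene. Capitals mark the motifs searched on both strands, which were the PU.1-type ETS core GAGGAA, the AP-1 site TGAGTCA, the hypoxia response core ACGTG and the GC box GGGCGG. A window was found for 9 of the 10 genes, and P2ry6 was the exception. Where a gene had several windows, the one without annotated exon bases was taken.
Adora2b (chr11:62248734-62248983, plus strand): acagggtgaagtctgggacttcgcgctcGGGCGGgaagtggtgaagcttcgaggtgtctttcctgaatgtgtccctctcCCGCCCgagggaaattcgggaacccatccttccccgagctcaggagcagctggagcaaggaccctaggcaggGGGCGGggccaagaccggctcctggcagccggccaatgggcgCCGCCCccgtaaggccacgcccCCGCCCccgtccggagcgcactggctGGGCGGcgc
P2rx4 (chr5:122707294-122707543, plus strand): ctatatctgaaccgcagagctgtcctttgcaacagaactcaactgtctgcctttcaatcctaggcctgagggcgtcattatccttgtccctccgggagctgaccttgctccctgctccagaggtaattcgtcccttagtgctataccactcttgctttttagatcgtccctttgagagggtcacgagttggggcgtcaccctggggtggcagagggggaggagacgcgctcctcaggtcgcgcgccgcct
P2ry13 (chr3:59210883-59211132, minus strand): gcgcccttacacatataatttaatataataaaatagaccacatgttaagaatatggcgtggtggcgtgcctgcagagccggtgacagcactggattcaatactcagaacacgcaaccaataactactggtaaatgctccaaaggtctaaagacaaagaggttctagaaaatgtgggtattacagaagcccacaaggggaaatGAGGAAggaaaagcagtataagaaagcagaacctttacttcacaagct
P2ry14 (chr3:59131329-59131578, minus strand): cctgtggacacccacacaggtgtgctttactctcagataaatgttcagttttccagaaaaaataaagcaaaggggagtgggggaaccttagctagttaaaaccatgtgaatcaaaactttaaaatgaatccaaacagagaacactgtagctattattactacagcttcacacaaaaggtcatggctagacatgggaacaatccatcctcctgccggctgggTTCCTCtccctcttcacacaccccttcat

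The Adora2b window held 6 GC boxes and none of the other 3 motifs, and a GC box occurred in 32.7% of 32851 windows of the same length. The windows of P2ry13 and P2ry14 each held 1 copy of the ETS core, which occurred in 23.3% of all windows. P2ry14 had 4 windows, each with 1 ETS core. However, the printed window overlaps that at chr3:59131119-59131368, and the ETS core of these windows is the same site. The one printed lies inside the gene, at another annotated start, and the one at the 5′ end of the gene (chr3:59153493-59153742, with 126 annotated exon bases) also held 1 AP-1 site. No motif was found in the P2rx4 window. The AP-1 site and the hypoxia core occurred in 4.46% and 16.6% of all windows. These matches describe the letters only.

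The first question was whether AMs of tumor-bearing mice differed from AMs of control mice in these genes. Adora2b and P2rx4 were higher and P2ry14 and P2ry13 were lower in Tumor-AM than in Ctrl-AM, so that 4 of the 10 genes were past the threshold, against a background of 10.3% of all genes tested. The 2 that rose stood against 7.11% of all genes and the 2 that fell against 3.18%. This background depends on the scaling, since after rescaling to the same sum (TPM) it was 4.45% higher and 7.71% lower, with 2 of the 10 genes higher and 3 lower. The Ctrl-AM and Tumor-AM samples did not overlap for the same 4 genes, as for 32.3% of all genes. The median change over the 10 genes was -0.0038 on the log2(FPKM + 1) scale, beside 0.0142 over all genes tested, and the median size of the change was 0.208 beside 0.156.

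Markers of the sort and of other cells differed between the AM groups as well. Pparg, an AM regulator, was lower in Tumor-AM by 0.53 ± 0.09 on the log2(FPKM + 1) scale (limma, adjusted p = 0.00455), and the TAM markers Ccr2 and Ly6c2 were higher by 0.97 and 0.50 (adjusted p = 0.00965 and 0.00867). The summed level of 4 fibroblast markers was 1.43 to 3.07 FPKM in Ctrl-AM and 3.57 to 24.4 FPKM in Tumor-AM, mostly from Col3a1, which was at 4.84, 3.47 and 21.0 FPKM in Tumor-AM (adjusted p = 0.0272). The other fibroblast markers were low, and the means of Col1a1 and Col1a2 did not rise. From Ctrl-AM to Tumor-AM these means went from 0.579 to 0.558 FPKM (Col1a1), 0.556 to 0.292 FPKM (Col1a2) and 0.188 to 0.632 FPKM (Pdgfra). The B cell marker Cd79a and the neutrophil marker S100a9 were lower in Tumor-AM by 1.21 and 1.81 (adjusted p = 0.0214 and 0.0173). The more abundant neutrophil marker S100a8 went the other way, by 0.60, and was not past the threshold (limma, adjusted p = 0.0708). Summed over 4 neutrophil markers, the level was 92.1 to 112 FPKM in Ctrl-AM and 89.5 to 152 FPKM in Tumor-AM. That of 4 epithelial markers was 48.4 to 200 FPKM in Ctrl-AM, 27.9 to 79.1 FPKM in Tumor-AM and 18.0 to 71.9 FPKM in Tumor-macrophage. Scgb1a1 alone was at 169 FPKM in Ctrl-AM 1. The epithelial markers Sftpc, Sftpa1 and Scgb1a1 were not past the threshold between the AM groups. The part of these cells in the changes of the 10 genes was not tested. Without Tumor-AM 3, the sample with the most Col3a1, 3 of the 4 genes kept their call and P2ry13 did not. This cannot decide the part of such cells, since Col3a1 in Tumor-AM 1 and 2 was still above its Ctrl-AM range of 0.608 to 1.51 FPKM.

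**Figure D1:**
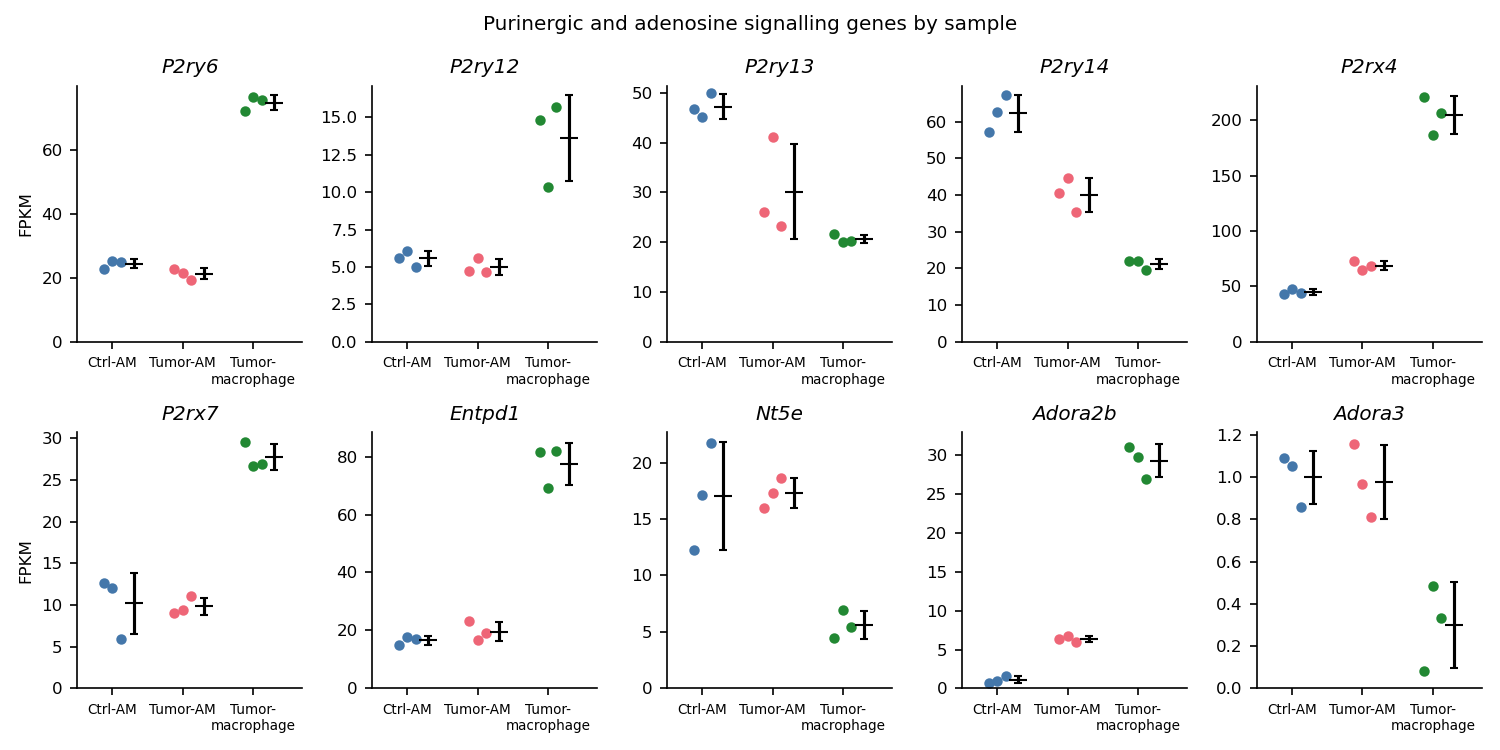
FPKM (vertical axes, each from 0) of the 10 genes in the 9 samples, by group. Points are samples, and the black mark and bar beside them are the mean ± SD of 3 samples. Adora2b rises from Ctrl-AM (0.70 to 1.61 FPKM) through Tumor-AM (5.98 to 6.77) to Tumor-macrophage (27.0 to 31.1), whereas P2ry14 falls along the same order.

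Adora2b encodes a Gs-coupled adenosine receptor of low affinity, which raises cyclic AMP when adenosine is abundant. It was at 0.70, 1.00 and 1.61 FPKM in Ctrl-AM samples and at 6.39, 6.77 and 5.98 FPKM in Tumor-AM. Every Tumor-AM sample was therefore above every Ctrl-AM sample. The increase was 1.83 ± 0.15 (SE) on the log2(FPKM + 1) scale (limma, adjusted p = 0.000158), and the ratio of the mean FPKM was 5.78. Tumor-macrophage samples were higher again, at 31.1, 29.8 and 27.0 FPKM. This group exceeded Tumor-AM by 2.04 ± 0.15 on the log2(FPKM + 1) scale (adjusted p = 1.14e-06) and Ctrl-AM by 3.87 ± 0.15 (adjusted p = 7.11e-09). In terms of depth, the gene rested on an estimated 14.3 to 36.9 reads per sample in Ctrl-AM, 121 to 139 in those of Tumor-AM and 558 to 573 in Tumor-macrophage.

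The other adenosine receptor of the list, the Gi-coupled Adora3, stood near the limit of detection. It was at 1.09, 1.05 and 0.86 FPKM in Ctrl-AM, at 1.16, 0.97 and 0.81 FPKM in Tumor-AM, and at 0.08, 0.49 and 0.33 FPKM in Tumor-macrophage. The AM groups overlapped, with a difference of -0.02 on the log2(FPKM + 1) scale and a 95% interval of -0.35 to 0.31. All Tumor-macrophage samples were below all AM samples, by 0.61 against Tumor-AM and by 0.63 against Ctrl-AM. These differences are given as a description, since Adora3 passed the filter with exactly 3 samples at 1 FPKM or more, all of them AMs, and rested on an estimated 1.96 to 11.7 reads in Tumor-macrophage.

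Adora1 and Adora2a, the remaining adenosine receptor genes, were below the filter. Adora1 was at 0 to 0.120 FPKM, and Adora2a was at 0.102 to 1.99 FPKM over the 9 samples. Among the 4 adenosine receptor genes, Adora2b thus had the highest mean level in Tumor-AM and in Tumor-macrophage, while in Ctrl-AM its 3 values spanned those of Adora3. The ratio of Adora2b to Adora3 within a sample was 0.639 to 1.88 in Ctrl-AM samples, 5.52 to 7.39 in those of Tumor-AM and 61.5 to 375 in Tumor-macrophage, where the denominator was close to 0.

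P2rx4 was the most abundant of the 10 genes in both populations from tumor-bearing mice. It encodes an ATP-gated channel that in macrophages is found largely on lysosomes. Its levels were 43.0, 47.8 and 44.0 FPKM in Ctrl-AM, 72.9, 65.1 and 68.4 FPKM in Tumor-AM, and 221, 187 and 207 FPKM in Tumor-macrophage. No 2 of the groups overlapped. The excess of Tumor-AM over Ctrl-AM was 0.60 ± 0.08 on the log2(FPKM + 1) scale (limma, adjusted p = 0.00179). Tumor-macrophage exceeded Tumor-AM by 1.56 ± 0.08 (adjusted p = 9.29e-08) and Ctrl-AM by 2.16 ± 0.08 (adjusted p = 5.95e-09).

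P2rx7, its neighbour on chromosome 5, encodes the channel that opens at high ATP and drives inflammasome activation. It was at 12.6, 12.1 and 5.96 FPKM in Ctrl-AM samples and at 9.06, 9.46 and 11.0 FPKM in Tumor-AM. The single low sample, Ctrl-AM 3, widened the spread of the control group, and the groups overlapped. The difference was 0.01 on the log2(FPKM + 1) scale with a 95% interval of -0.47 to 0.49 (limma, adjusted p = 0.985), and it was -0.30 without Ctrl-AM 3 (adjusted p = 0.165). In Tumor-macrophage the 3 values were 29.5, 26.7 and 27.0 FPKM, above all AM samples, by 1.41 ± 0.22 against Tumor-AM (adjusted p = 0.000305) and 1.42 ± 0.22 against Ctrl-AM (adjusted p = 0.000249). The ratio of P2rx4 to P2rx7 within a sample was 3.41 to 7.38 in Ctrl-AM samples, 6.19 to 8.05 in those of Tumor-AM and 6.98 to 7.68 in Tumor-macrophage, so that these ranges overlapped.

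The P2Y receptors went in different directions. P2ry14, a Gi-coupled receptor for UDP-glucose and other UDP-sugars, was at 57.1, 62.5 and 67.1 FPKM in Ctrl-AM. Its levels were 40.4, 44.5 and 35.3 FPKM in Tumor-AM and 22.1, 21.9 and 19.6 FPKM in Tumor-macrophage. The 3 groups were separate and in descending order. P2ry14 fell by 0.63 ± 0.10 on the log2(FPKM + 1) scale in Tumor-AM against Ctrl-AM (limma, adjusted p = 0.00409). Tumor-macrophage was lower than Tumor-AM by 0.88 ± 0.10 (adjusted p = 3.49e-05) and lower than Ctrl-AM by 1.51 ± 0.10 (adjusted p = 4.15e-07).

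P2ry13, a Gi-coupled receptor for ADP, was at 46.8, 45.1 and 49.9 FPKM in Ctrl-AM. In Tumor-AM it was at 26.1, 41.1 and 23.3 FPKM, and in Tumor-macrophage at 21.6, 20.1 and 20.3 FPKM. Tumor-AM 2 was the sample near the control level, the same sample that stood apart in Marco. Among Tumor-AM samples it also had the least Nkg7 (3.30 FPKM, beside 11.6 and 11.9), Cd79b (0.564, beside 2.01 and 1.62) and Ccr2 (3.04, beside 5.83 and 3.63). In contrast, S100a8 and Ly6c2 were highest there, at 144 and 8.20 FPKM. The part of other cells in the spread of P2ry13 was not tested. The change in Tumor-AM against Ctrl-AM was -0.67 ± 0.17 on the log2(FPKM + 1) scale (limma, adjusted p = 0.0311), and it was -0.91 without Tumor-AM 2 (adjusted p = 0.000510). The call was lost without Tumor-AM 1 or 3 (-0.59 and -0.51, adjusted p = 0.0955 and 0.0943), and without any 1 of the Ctrl-AM samples (adjusted p = 0.0703 to 0.107). Tumor-macrophage was lower than Tumor-AM by 0.48 ± 0.17 (adjusted p = 0.0348), or by 0.25 without Tumor-AM 2 (adjusted p = 0.0512), and lower than Ctrl-AM by 1.16 ± 0.17 (adjusted p = 0.000168).

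P2ry6, a Gq-coupled receptor for UDP that in microglia triggers phagocytosis, was not past the threshold in AMs. It was at 22.8, 25.4 and 25.1 FPKM in Ctrl-AM samples and at 22.9, 21.5 and 19.4 FPKM in Tumor-AM. The groups overlapped by a single sample, and the difference of -0.19 on the log2(FPKM + 1) scale, with a 95% interval of -0.38 to -0.01 before adjustment for the number of genes, had an adjusted p of 0.178 by limma. After rescaling every sample to the same sum it was -0.33 (adjusted p = 0.0473), a scaling that moved the median of all genes to -0.109. In Tumor-macrophage P2ry6 was at 72.3, 76.6 and 75.6 FPKM, far above all AM samples, by 1.77 ± 0.08 against Tumor-AM (adjusted p = 3.91e-08) and 1.58 ± 0.08 against Ctrl-AM (adjusted p = 5.89e-08).

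P2ry12, a further Gi-coupled ADP receptor, best known from platelets and microglia, had the lowest level of the 4 P2Y receptors. It was at 5.62, 6.06 and 5.03 FPKM in Ctrl-AM samples and at 4.71, 5.61 and 4.66 FPKM in Tumor-AM, with overlap and a difference of -0.13 on the log2(FPKM + 1) scale (95% interval -0.47 to 0.20, limma, adjusted p = 0.655). It was at 14.8, 10.3 and 15.7 FPKM in Tumor-macrophage. All 3 TAM samples were above the AM samples, by 1.27 ± 0.15 against Tumor-AM (adjusted p = 4.84e-05) and 1.14 ± 0.15 against Ctrl-AM (adjusted p = 9.18e-05). The summed level of 4 platelet markers was 0.600 to 5.26 FPKM in Tumor-macrophage and 0.285 to 2.27 FPKM in the AM samples. Of these markers Itga2b was at 0 in the TAM samples and at 0 to 0.227 FPKM in the AM samples, and Ppbp was at 0.309, 5.12 and 1.47 FPKM in the TAM samples and at 0 to 0.560 FPKM in the AM samples. Their part in the level of P2ry12 was not tested.

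**Figure D2:**
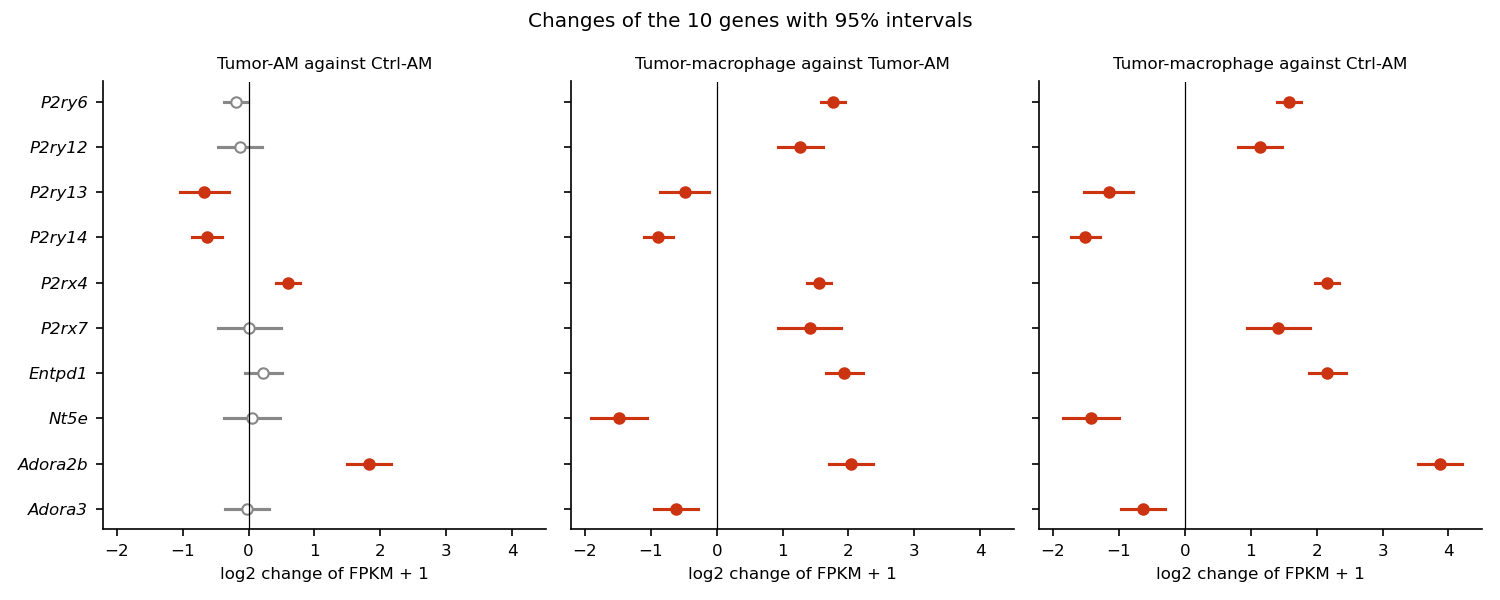
Difference of group means on the log2(FPKM + 1) scale (horizontal axes) for the 10 genes in the 3 comparisons, with 95% intervals from limma before adjustment for the number of genes. Filled red points are past the adjusted threshold of 0.05 and open grey points are not: 4 of 10 in Tumor-AM against Ctrl-AM and 10 of 10 in each comparison with Tumor-macrophage.

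Summed over the 4 P2Y receptors, the level was 140 ± 7.4 FPKM (SD, n = 3) in Ctrl-AM, 96.5 ± 15.1 FPKM in Tumor-AM and 130 ± 1.2 FPKM in Tumor-macrophage. The makeup of this sum differed more than the sum between AMs and TAMs. P2ry14 supplied 44.6% ± 1.3 of it in Ctrl-AM, 41.7% ± 1.9 of it in Tumor-AM and 16.3% ± 1.2 in Tumor-macrophage. P2ry6 supplied 17.5% ± 0.67, 22.3% ± 2.8 and 57.4% ± 2.1 in the same order. The most abundant P2Y transcript of the list was therefore that of the UDP-sugar receptor in every AM sample and that of the UDP receptor in every TAM sample. The ratio of P2ry6 to P2ry14 within a sample was 0.373 to 0.407 in Ctrl-AM samples, 0.482 to 0.565 in those of Tumor-AM and 3.26 to 3.87 in Tumor-macrophage.

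The 3 receptors inside Med12l differed in direction in TAMs. Going along chromosome 3, these receptors and Gpr171 lay in the order Gpr171, P2ry14, P2ry13 and P2ry12, all on the minus strand, between 90.6 and 257 kb from the start of Med12l. In Tumor-macrophage against Ctrl-AM Gpr171 and P2ry12 were higher and P2ry14 and P2ry13 between them were lower. In Tumor-AM against Ctrl-AM all 4 differences were below 0, and that of P2ry12 was not past the threshold. Gpr171, a G protein-coupled receptor gene of the same cluster, was at 6.70, 9.02 and 11.8 FPKM in Ctrl-AM, 6.21, 5.06 and 3.91 FPKM in Tumor-AM and 21.8, 22.2 and 20.6 FPKM in Tumor-macrophage. Its level in Tumor-macrophage exceeded that of the control AMs by 1.18 ± 0.19 on the log2(FPKM + 1) scale (limma, adjusted p = 0.000307). In Tumor-AM it was 0.73 ± 0.19 below them (adjusted p = 0.0329), a call lost in 7 of 18 alternative settings, among them without Ctrl-AM 2 or 3 and without Tumor-AM 2 or 3 (adjusted p = 0.0700 to 0.113). The exons of P2ry12 and Med12l overlapped by 9 bases, and no exon bases were shared by P2ry13 or P2ry14.

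**Figure D3:**
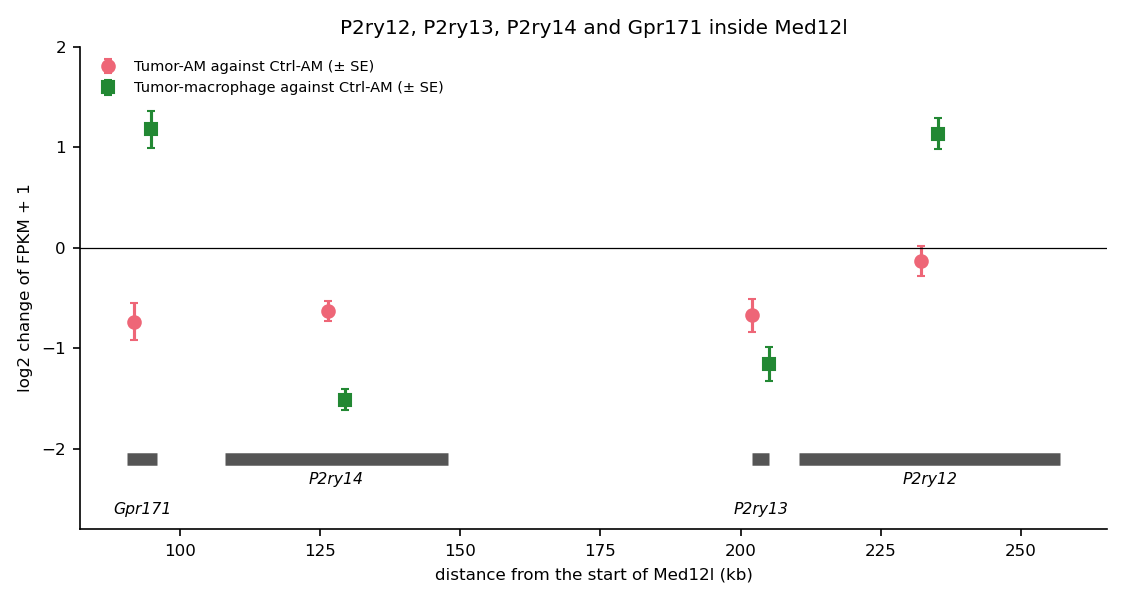
Change on the log2(FPKM + 1) scale (vertical axis, ± SE) of P2ry12, P2ry13, P2ry14 and Gpr171, which lie inside Med12l, against their distance from its start (horizontal axis, kb, grey bars for gene bodies). Circles are Tumor-AM against Ctrl-AM and squares are Tumor-macrophage against Ctrl-AM, which share the control samples. The circles are all below 0, past the threshold for Gpr171, P2ry14 and P2ry13, and the squares are above 0 for Gpr171 and P2ry12 and below 0 for P2ry14 and P2ry13.

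The ectoenzymes that lead from ATP to adenosine separated TAMs from AMs in opposite directions. Entpd1, which encodes CD39, was at 14.9, 17.7 and 17.0 FPKM in Ctrl-AM samples and at 23.3, 16.6 and 19.0 FPKM in Tumor-AM. These groups overlapped, with a difference of 0.22 on the log2(FPKM + 1) scale (95% interval -0.06 to 0.50, limma, adjusted p = 0.314). In Tumor-macrophage Entpd1 was at 81.5, 69.0 and 82.0 FPKM, above every AM sample, by 1.94 ± 0.13 against Tumor-AM (adjusted p = 4.11e-07) and 2.16 ± 0.13 against Ctrl-AM (adjusted p = 1.35e-07).

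Nt5e, which encodes CD73, the enzyme that makes adenosine from AMP, was at 12.3, 17.1 and 21.8 FPKM in Ctrl-AM samples and at 16.0, 17.3 and 18.6 FPKM in Tumor-AM. The Tumor-AM values lay inside the control range, with a difference of 0.05 on the log2(FPKM + 1) scale (95% interval -0.37 to 0.48, limma, adjusted p = 0.905). In Tumor-macrophage it was at 4.50, 6.98 and 5.42 FPKM, below every AM sample, by 1.48 ± 0.19 against Tumor-AM (adjusted p = 8.92e-05) and 1.43 ± 0.19 against Ctrl-AM (adjusted p = 9.79e-05). The ratio of Entpd1 to Nt5e within a sample was 0.781 to 1.22 in Ctrl-AM samples, 0.959 to 1.46 in those of Tumor-AM and 9.90 to 18.1 in Tumor-macrophage. Transcript levels of these enzymes give no measure of their activity.

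**Figure D4:**
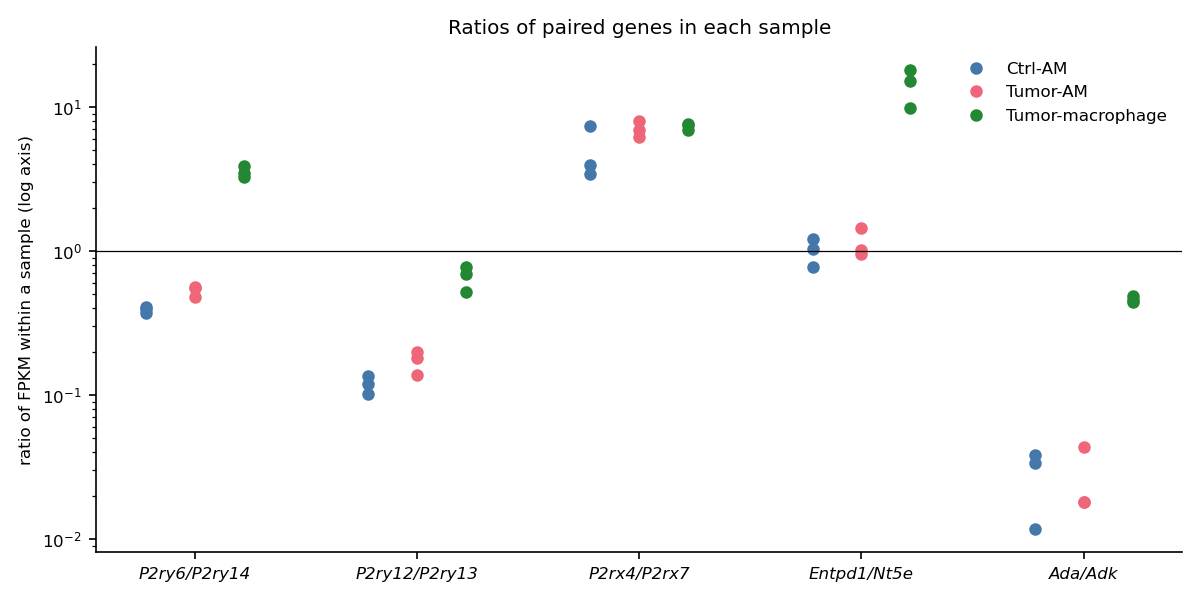
Ratio of the FPKM of paired genes within each sample (vertical axis, log scale), by group, with a line at 1. The ranges of Tumor-macrophage lie above those of both AM groups for P2ry6/P2ry14, P2ry12/P2ry13, Entpd1/Nt5e and Ada/Adk, whereas those of P2rx4/P2rx7 overlap.

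The second question was how TAMs of tumor-bearing mice differed from AMs of such mice. All 10 genes were past the threshold in Tumor-macrophage against Tumor-AM, beside 48.6% of all genes tested. Adora3 was tested only through its AM samples, and without it the count was 9 of 9, with 6 higher and 3 lower, in both comparisons with Tumor-macrophage. The 6 that were higher, Adora2b, Entpd1, P2ry6, P2rx4, P2rx7 and P2ry12, stood against 24.2% of all genes, and the 4 that were lower, Nt5e, P2ry14, Adora3 and P2ry13, against 24.4%. The samples did not overlap for any of the 10, as for 55.3% of all genes. The median change over the 10 genes was 1.34 on the log2(FPKM + 1) scale, beside 0.0012 over all genes, and the median size of the change was 1.44 beside 0.331. Against Ctrl-AM the same 6 genes were higher (background 27.7%) and the same 4 lower (27.1%), so that 10 of 10 stood beside 54.8% of all genes, and none overlapped, as for 62.3% of all genes. After rescaling to TPM the directions of the 10 genes were as before, beside a background of 19.9% higher and 29.3% lower against Tumor-AM, and of 19.9% and 41.3% against Ctrl-AM. These comparisons share the Tumor-macrophage samples and are given side by side.

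Markers of other cells also moved with the TAM samples, as did the AM markers given above. The summed level of 4 B cell markers was 31.5 to 58.2 FPKM in Tumor-macrophage, 3.15 to 7.49 FPKM in Tumor-AM and 12.7 to 16.8 FPKM in Ctrl-AM. That of 6 T and NK cell markers was 25.3 to 48.6 FPKM in Tumor-macrophage, 5.37 to 16.2 FPKM in Tumor-AM and 5.30 to 7.23 FPKM in Ctrl-AM. In Tumor-macrophage most of this sum was Nkg7 (13.4 to 22.8 FPKM) and Cd4 (8.06 to 17.8 FPKM). Of the T cell markers Cd3d and Cd3e, the first was past the threshold against Tumor-AM and the second was not (limma, adjusted p = 0.0139 and 0.153). Against Ctrl-AM both were higher, by 1.21 and 0.98 on the log2(FPKM + 1) scale (limma, adjusted p = 0.00263 and 0.00996). The sum of 3 dendritic cell markers was 3.13 to 4.12 FPKM in Tumor-macrophage and 0.490 to 2.08 FPKM in the AM samples. All 4, all 6 and all 3 were above 0 in each group. The part of these cells in the levels of the 10 genes, or of the further genes given below, was not tested. In such bulk samples, fewer cells of a type and less RNA per cell cannot be told apart.

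The position of Tumor-AM between the other groups differed from gene to gene. It was expressed as the percentage of the way from the mean FPKM of Ctrl-AM (0) to that of Tumor-macrophage (100). For Adora2b the 3 Tumor-AM samples lay at 17.3% to 20.1%, and for P2rx4 at 12.6% to 17.5%. For P2ry14 they lay at 43.3% to 65.7%. For P2ry13 they lay at 79.3%, 23.2% and 90.1%. P2ry6, P2ry12, P2rx7, Entpd1 and Nt5e had means between -7.13% and 5.02%, near the control level, and the low gene Adora3 scattered from -22.4% to 27.3%. The 4 TAM markers had means of 0.234% (Cx3cr1), 2.31% (Tgfb3), 5.05% (Ly6c2) and 7.07% (Ccr2), and their highest single sample was at 11.6%. Of the 5 AM markers, which all fall toward Tumor-macrophage, Siglecf lay at 9.07% to 18.7%, Pparg at 30.8% to 35.1%, Marco at -50.9% to 74.9%, Mrc1 at -44.6% to 17.5% and Siglec1 at -31.4% to -17.6%. The values of Adora2b and P2rx4 were above those of the TAM markers, which is a description, since both genes were called from the same samples. They were within the span of the AM markers, also without Marco, since Mrc1 reached -44.6% and Pparg 35.1%, and they overlapped the range of Siglecf. The part of TAMs among the sorted AMs was not tested.

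**Figure D5:**
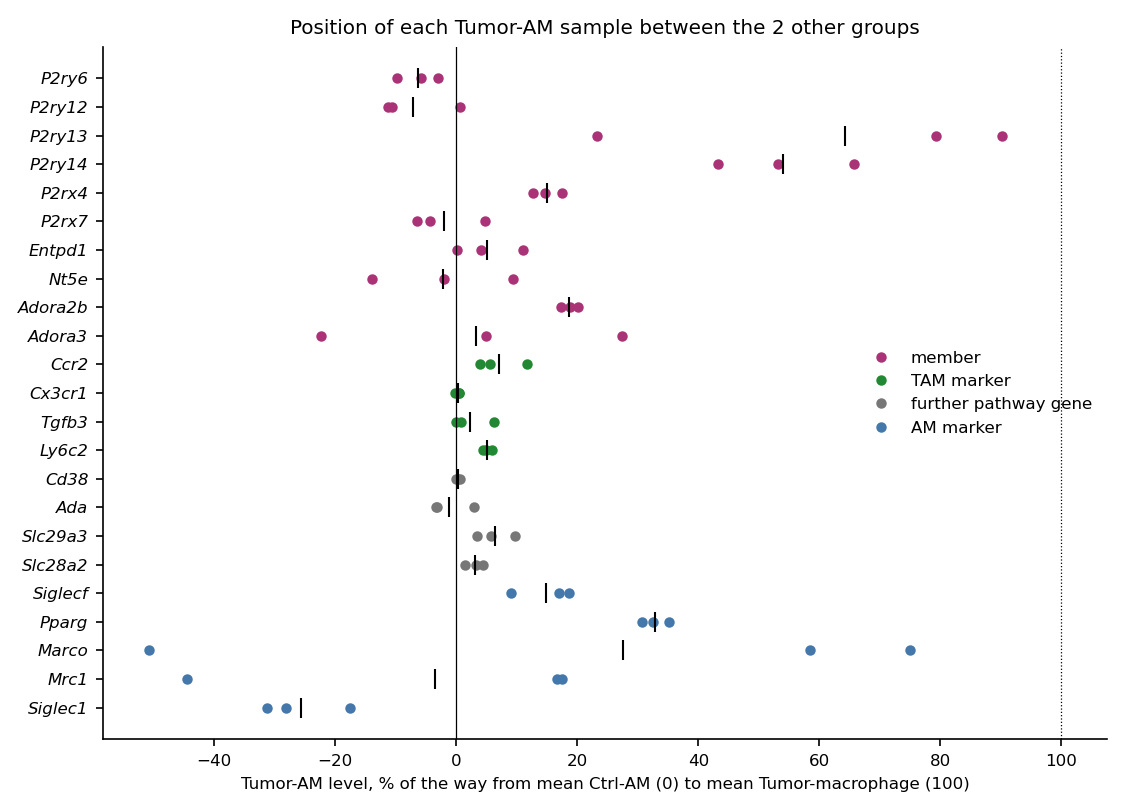
Position of each Tumor-AM sample (points) on the way from the mean FPKM of Ctrl-AM (0%) to that of Tumor-macrophage (100%), with the mean as a black tick, for the 10 genes (purple), the TAM markers (green), the AM markers (blue) and 4 further genes of the pathway (grey, those that exceeded Ctrl-AM by more than 2 in Tumor-macrophage on the log2 scale, chosen after their values were seen). Adora2b and P2rx4 lie between 12.6% and 20.1%, P2ry14 and P2ry13 between 23.2% and 90.1%, the TAM markers between -0.220% and 11.6%, and the AM markers between -50.9% and 74.9%.

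Beyond the 10 genes, 45 further genes of nucleotide and adenosine handling were listed, of which 30 passed the filter. In Tumor-AM against Ctrl-AM, 2 of the 30 were higher and 0 were lower by limma, beside 7.11% and 3.18% of all genes, a share of higher genes near the background. Pde4b, a phosphodiesterase that degrades cyclic AMP, was at 34.1, 44.2 and 36.3 FPKM in Ctrl-AM samples and at 117, 66.1 and 102 FPKM in Tumor-AM. It rose by 1.26 ± 0.19 on the log2(FPKM + 1) scale (limma, adjusted p = 0.00323) and was at 67.8 to 88.4 FPKM in Tumor-macrophage. Bst1, a NAD-degrading ectoenzyme, was 0.35 ± 0.10 higher in Tumor-AM (adjusted p = 0.0467), a call lost in 11 of 18 alternative settings, among them without any 1 of the Ctrl-AM samples (adjusted p = 0.0796 to 0.151), without Tumor-AM 2 or 3 (adjusted p = 0.134 and 0.105) and without Tumor-macrophage 3 (adjusted p = 0.0594). The median change of the 30 was 0.0970, beside 0.0142 over all genes.

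In Tumor-macrophage against Tumor-AM, 8 of the 30 were higher and 9 lower, beside 24.2% and 24.4% of all genes, and against Ctrl-AM 11 were higher and 10 lower, beside 27.7% and 27.1%. Ada, Dpp4 and Slc28a2 passed the filter only through the TAM samples, and P2rx5 only through the AM samples, so these 4 had to differ. Of the other 26, 5 were higher and 8 lower against Tumor-AM, and 8 were higher and 9 lower against Ctrl-AM. Gja1, among those higher against Ctrl-AM, passed the filter only through samples of tumor-bearing mice. These were Tumor-AM 3 at 3.60 FPKM and Tumor-macrophage 2 and 3 at 2.54 and 3.59 FPKM. Its call against Ctrl-AM, where it was at 0 to 0.225 FPKM, is therefore a description. Of 9 genes of adenosine clearance and transport, 5 were higher (Ada, Ahcy, Dpp4, Slc28a2 and Slc29a3) and 2 lower (Adk and Slc29a1) in both comparisons, 3 of the higher ones being those that passed through the TAM samples. The call of Adk against Tumor-AM was lost without Tumor-AM 3 (adjusted p = 0.0616), Tumor-macrophage 1 (0.0522) or Tumor-macrophage 3 (0.0538). Ada, the deaminase that turns adenosine into inosine, was at 7.82, 9.96 and 8.10 FPKM in Tumor-macrophage and at 0.273 to 0.956 FPKM in the 6 AM samples. Compared with Tumor-AM this was an excess of 2.60 ± 0.19 on the log2(FPKM + 1) scale, given as a description because of that filter. The ratio of Ada to Adk, the kinase that returns adenosine to AMP, was 0.0116 to 0.0386 in Ctrl-AM samples, 0.0179 to 0.0434 in those of Tumor-AM and 0.441 to 0.489 in Tumor-macrophage. The concentrative nucleoside carrier Slc28a2 and the lysosomal carrier Slc29a3 exceeded Tumor-AM by 3.05 and 2.15 (the first again as a description), and the surface carrier Slc29a1 was lower by 0.98 ± 0.10.

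The NAD-degrading ectoenzymes Cd38 and Bst1, which are neighbouring paralogues, went in opposite directions. Cd38 was at 56.7, 75.4 and 72.0 FPKM in Tumor-macrophage and at 0.666 to 1.20 FPKM in the AM samples, a difference of 5.10 ± 0.14 from Tumor-AM on the log2(FPKM + 1) scale (limma, adjusted p = 9.93e-10). Bst1 was at 40.6 to 49.4 FPKM in Tumor-macrophage, 106 to 130 FPKM in Tumor-AM and 87.3 to 95.8 FPKM in Ctrl-AM, and in Tumor-macrophage it was below Tumor-AM by 1.33 ± 0.10 (adjusted p = 1.09e-06). Enpp1, which cleaves ATP to AMP and pyrophosphate, was lower by 1.36 ± 0.12 (adjusted p = 5.57e-06). None of the other 5 listed ectoenzymes, Entpd2, Entpd3, Entpd8, Enpp3 and Alpl, passed the filter.

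Of the other nucleotide receptors, P2ry2 and P2rx5 passed the filter. P2ry2, a receptor for ATP and UTP, was at 18.2 to 21.3 FPKM in the AM samples and at 6.23 to 8.64 FPKM in Tumor-macrophage, lower than in Tumor-AM by 1.31 ± 0.12 on the log2(FPKM + 1) scale (limma, adjusted p = 4.73e-06). P2rx5, a further ATP-gated channel, was at 4.46 to 6.58 FPKM in the AM samples and at 0.154 to 0.518 FPKM in Tumor-macrophage, lower than in Tumor-AM by 2.28 ± 0.15, a description since it was tested only through the AM samples. P2ry1, P2ry4, P2rx1, P2rx2, P2rx3 and P2rx6 reached at most 0.516 FPKM in any sample. Of 9 G proteins and effectors, the Tumor-macrophage samples had more Gna13 and less Adcy7 and Gnai3 than those of Tumor-AM, each past the threshold. The call of Adcy7 was lost with the compared groups only (adjusted p = 0.0596), without Tumor-AM 1 or 3 (0.0558 and 0.0930) and without Tumor-macrophage 2 (0.0780). Entpd7 (intracellular enzyme) was past the threshold and higher in Tumor-macrophage than in both AM groups, by 1.03 against Tumor-AM. Slc17a9 (nucleotide release) and the neighbouring gene Camkk2 were past it and lower, by 0.95 and 0.91 against Tumor-AM. Past it against Ctrl-AM but not Tumor-AM, Gja1 (a description because of the filter) and Lrrc8a, genes of nucleotide release, were higher and Gna11 and Gnas lower. Their calls were lost in 1 of 17, 1 of 18, 7 of 17 and 8 of 18 alternative settings.

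The genes whose pattern over the 9 samples was most like that of each of the 10 are given as a description, since 3 groups with large differences make such values high. By Pearson's r of log2(FPKM + 1) the nearest gene to Adora2b was Cds1 (r = 0.997), at 0.497, 1.73 and 4.73 FPKM on average over the samples of Ctrl-AM, Tumor-AM and Tumor-macrophage. The nearest to P2rx4 was Necap2 (r = 0.998), to P2ry14 Grap2 (r = 0.994), to P2ry13 Ttf1 (r = 0.988), to P2ry6 Fgd2 (r = 0.996) and to P2ry12 Dclre1c (r = 0.995). The nearest to Entpd1 was Arl4c (r = 0.999), to Nt5e Synj2 (r = 0.985), to P2rx7 Anxa9 (r = 0.979) and to Adora3 Tsta3 (r = 0.980). Fgd2 was at 1.37 ± 0.44 FPKM (SD, n = 3) in Ctrl-AM, 0.828 ± 0.24 FPKM in Tumor-AM and 47.3 ± 5.4 FPKM in Tumor-macrophage.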

How the data were processed

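According to the labels and methods, the authors made full-length cDNA from RNA of sorted cells with SMART-Seq HT and Nextera libraries without strand, sequenced single-end reads of 75 bases, and mapped them to mm10 with TopHat2 2.1.1 and Bowtie2; Cuffdiff 2.2.1 is named in the submitters' processing notes. The authors deposited FPKM per gene symbol and sample. The annotation and the treatment of reads shared between genes were not given in the sources used here. FPKM does not correct for a few abundant RNAs that take reads in 1 population.

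FPKM are not counts. Group means of log2(FPKM + 1) were compared with limma (version 3.58.1, R 4.3.3), with a trend in the prior variance, over all 9 samples, for 10686 genes at 1 FPKM or more in at least 3 samples. Changes of low genes are understated on this scale, because of the pseudocount of 1. Tests were two-sided with Benjamini-Hochberg adjustment over these genes (threshold 0.05). Reads per library were estimated from the spacing of low FPKM values, so they are approximate and cover counting error only. Loci came from GENCODE vM21 and promoters from RefSeq. Python 3.11.15 was used for joins and plots.

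The 10 genes and all gene and marker lists were chosen with earlier results of these data known. Named were the 10 genes, listed pathway and neighbouring genes past the threshold in any comparison, and for each of the 10 the tested gene with the highest Pearson correlation. Other genes singled out were chosen after their values were seen. Alternatives were a pseudocount of 0.1, no filter or one of 5 FPKM, rescaling to TPM, quantile and median-ratio scaling, a prior variance without trend, only the compared groups in the model, a replicate block and leaving out each sample.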

Additional observations from a re-analysis of the deposited data

How the results depend on the processing

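Of the 10 genes, 8 lost no call in any comparison under any of the 18 alternatives, and Adora3 lost none under the 17 in which it was tested (the filter of 5 FPKM removes it). P2ry13 was the exception, past the threshold in 11 of 18 alternatives in Tumor-AM against Ctrl-AM (adjusted p = 0.000510 to 0.107), lost also with no filter (0.0804) and with the compared groups only (0.0563), and in 12 of 18 in Tumor-macrophage against Tumor-AM (adjusted p = 0.00876 to 0.0819), lost also with no filter (0.0770), with the compared groups only (0.0684) and without any 1 of the Tumor-macrophage samples (0.0572 to 0.0819). The 1 call gained was P2ry6 after rescaling to TPM. No change past the threshold turned its direction. With a pseudocount of 0.1, Adora2b rose by 2.50 in Tumor-AM, and Adora3 was at -1.57 and -1.61 in Tumor-macrophage against Tumor-AM and Ctrl-AM. Rescaling to TPM moved the median of all genes to -0.109, -0.0846 and -0.222 in the 3 comparisons. Over all genes, calls in Tumor-AM against Ctrl-AM were 1100, and 538 to 1254 with 1 sample left out (538, 690 and 549 without Ctrl-AM 1, 2 or 3, 733 and 674 without Tumor-AM 1 or 3). The labels number the samples, but do not say that the numbers pair them. Deviations of same-numbered samples correlated at -0.0615 to 0.159, with 2 of 9 pairs above 0.1. Only Tumor-AM and Tumor-macrophage samples could share a mouse. Between these groups, same-numbered samples correlated at 0.026, 0.0964 and 0.109, and samples with different numbers at -0.101 to 0.00617. These values are linked, since deviations are taken from group means. Pairing by mouse was not tested, and the main fit was unpaired. With a replicate block, 4, 10 and 10 of the 10 genes remained past the threshold, calls over all genes were 938, 5069 and 5772 (1100, 5191 and 5860 without it), and Gpr171 in Tumor-AM against Ctrl-AM lost its call (adjusted p = 0.0638). Depth limits Adora3 in all groups and Adora2b in Ctrl-AM.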
